A study of Drosophila melanogaster with 2 samples.

Results

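The genes examined encode parts of the spliceosome, the RNA and protein machine that removes introns from messenger RNA precursors. They were chosen by symbol alone, as protein-coding genes of the Ensembl annotation named as Sm, LSm, Prp, U2af, Sf3a, Sf3b or snRNP genes. The rule found 32 of the 13945 protein-coding genes on the 6 chromosome arms, and no gene with the symbol SmG was among them. A member was counted when the summit of an Inv-eGFP peak lay within 1 kb of one of its own transcription start sites (TSS) and no more than 2 kb outside the gene. Inv (Invected) is a homeodomain transcription factor of the Engrailed class, made in the posterior cells of each segment of the fly embryo. It was tagged with enhanced green fluorescent protein and precipitated with an antibody to GFP from whole Drosophila melanogaster embryos of the inv-GFP strain, collected over 0 to 24 h of age. There was a single group, with 2 biological replicates and no other genotype or treatment. The labels do not say which regulatory DNA drives the fusion, and whole embryos mix all cell types, so the cells in which a site was occupied cannot be told.

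Introns are removed by 5 small nuclear ribonucleoproteins (snRNPs), each a small nuclear RNA with its proteins. A ring of Sm proteins holds the RNA of most of them, and a related LSm ring holds U6. The U1 snRNP recognises the start of an intron, U2AF the end of it, and the U2 snRNP, with SF3a and SF3b, the branch site. The Prp proteins, named after yeast mutants with defects in RNA processing, include helicases and the proteins around the catalytic centre. Most cells need these genes, so they belong to the broadly active class rather than to genes with patterned expression in the embryo.

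Of the 32 genes, 20 (62.5%) had a summit at their own TSS in the main pooled list, against 27.2% of all protein-coding genes under the same rule (3800 of 13945). The Sm genes had one in 5 of 6 cases (SmB, SmD1, SmD2, SmD3 and SmE, not SmF). The SF3a and SF3b genes had one in 6 of 7 cases (Sf3a1, Sf3a2, Sf3b1, Sf3b2, Sf3b3 and Sf3b6, not Sf3b5). LSm1 and LSm7 had one and LSm3 did not. Of the 4 genes for U1 and U2AF proteins, snRNP-U1-C and U2af50 had one, while snRNP-U1-70K and U2af38 did not. The Prp genes had the smallest share, with 5 of 12 (Prp5, Prp6, Prp8, Prp39 and Prp40). Those without were Prp3, Prp4k, Prp16, Prp18, Prp19, Prp31 and Prp38. These are counts in a short list of genes set beside the background, and no test of the list was made. In the same way 53 of 92 cytosolic ribosomal protein genes (57.6%) and 22 of 48 proteasome subunit genes (45.8%) had a summit at their own TSS. A share above the background was therefore not particular to the spliceosome genes.

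The DNA at many of the summits held a word that is also common at promoter peaks in general. The word TATCGA belongs to the DRE, a promoter element of many broadly active genes. It lay within 50 bp of the summit at 11 of the 20 genes, next to 48.3% of all promoter peaks, as defined below. The stretches shown first are from 7 of these genes, read 5' to 3' on the strand of the member from the Release 6 (dm6) genome. Each is the part of the 101-base summit window that lies outside every annotated exon, and capitals mark TATCGA or its reverse complement TCGATA.
SmE, chr2L:7885451-7885502, minus strand: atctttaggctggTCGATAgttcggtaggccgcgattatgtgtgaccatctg
Sf3a1, chr3R:17002356-17002444, minus strand: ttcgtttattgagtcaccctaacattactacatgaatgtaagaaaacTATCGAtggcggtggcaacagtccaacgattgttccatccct
Sf3a2, chr3L:12814020-12814120, minus strand: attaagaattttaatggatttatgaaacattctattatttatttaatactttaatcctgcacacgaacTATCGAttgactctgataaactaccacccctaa
Sf3b2, chr2L:3029169-3029240, minus strand: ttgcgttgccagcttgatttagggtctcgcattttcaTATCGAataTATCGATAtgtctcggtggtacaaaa
Sf3b3, chr3L:833386-833486, minus strand: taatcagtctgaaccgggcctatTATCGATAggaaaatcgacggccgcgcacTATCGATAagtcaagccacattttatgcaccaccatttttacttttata
Prp39, chr3R:28811986-28812086, plus strand: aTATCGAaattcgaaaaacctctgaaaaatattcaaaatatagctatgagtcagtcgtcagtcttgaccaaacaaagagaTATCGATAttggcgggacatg
snRNP-U1-C, chr3R:18983651-18983726, minus strand: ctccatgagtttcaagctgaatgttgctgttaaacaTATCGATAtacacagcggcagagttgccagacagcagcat
The full palindrome TATCGATA was present in the stretches from Sf3b2, Sf3b3, Prp39 and snRNP-U1-C, while those from SmE, Sf3a1 and Sf3a2 held the shorter word only.

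Strong peaks without the word within 50 bp of the summit also occurred, and the next stretches, read in the same way, are from a pair of them.
Sf3b1, chr2L:568216-568316, plus strand: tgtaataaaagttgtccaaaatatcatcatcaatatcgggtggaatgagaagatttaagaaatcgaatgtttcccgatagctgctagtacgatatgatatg
SmD1, chr3L:12734787-12734887, minus strand: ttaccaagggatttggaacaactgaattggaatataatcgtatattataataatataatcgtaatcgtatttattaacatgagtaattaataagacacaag
The last stretches are the 100 bases before the 5' end of members with no summit, shown because U2af38 holds the word and has no listed peak, while snRNP-U1-70K lacks both.
U2af38, chr2L:294682-294781, minus strand: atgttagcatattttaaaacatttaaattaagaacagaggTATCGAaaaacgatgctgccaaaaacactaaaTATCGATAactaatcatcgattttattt
snRNP-U1-70K, chr2L:6971738-6971837, minus strand: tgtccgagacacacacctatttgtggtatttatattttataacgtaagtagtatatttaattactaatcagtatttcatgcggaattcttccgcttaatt
SmD1 was the only member with TAATTA, the core site of Engrailed-class homeodomains, within 50 bp of its summit. The stretch shown for snRNP-U1-70K, which had no summit at its own TSS, also holds TAATTA.

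Counted on both strands, TATCGA lay within 50 bp of the summit at 55.0% of the member peaks and at 48.3% of the 2465 promoter peaks of the main list. A promoter peak is the strongest peak within 1 kb of the own TSS of any protein-coding gene, with shared peaks counted once. TATCGATA, whose occurrences are also counted as TATCGA, lay at 5 of 20 member summits and at 22.4% of promoter peaks. TAATTA lay at 1 of 20 and at 5.19%. The member peaks thus had shares close to those of promoter peaks in general.

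Members with and without a summit were then compared at their 5' ends, in a window from 250 bp before to 50 bp after, which does not depend on where a peak was called. TATCGA was found in this window in 16 of the 20 members with a summit (80.0%) and in 1 of the 12 without (8.33%), the exception being U2af38. Over all genes the shares were 58.4% with a summit, 16.2% without and 27.7% together. The 4 members with a summit and no TATCGA in the window were SmD1, SmD2, SmD3 and LSm1, and at LSm1 the word lay within 50 bp of a summit farther upstream. All 3 genes for SmD proteins therefore had a peak and no TATCGA in this window, but that depended on its length. From 500 bp before to 50 bp after the 5' end, 19 of the 20 members with a summit and 2 of the 12 without held the word. This comparison was chosen after the values were seen.

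Gene arrangement differed in the same direction. All 20 members with a summit had a divergent neighbour, meaning a protein-coding gene on the opposite strand whose TSS lay upstream within 1 kb of the 5' end of the member. Of the 12 members without a summit 7 had one. Over all genes, 62.1% of those with a summit and 24.4% of those without had such a neighbour. A summit at the own TSS was called for 48.7% of all genes with a divergent neighbour and for 15.8% of all genes without one. Taking both features together, 16 of the 17 members with TATCGA and a divergent neighbour had a summit, against 74.0% of all genes with both. Of the 10 members with the neighbour alone 4 had a summit, against 31.3%. The 5 members with neither, LSm3, Prp4k, Prp16, SmF and snRNP-U1-70K, had none, against 9.48%. Giving each member the share of all genes of its own class adds up to 16.2 of 32, compared with 8.72 when every member is given the share of all genes. These features were chosen after the values were seen, and their part in the result was not tested.

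**Figure D1:**
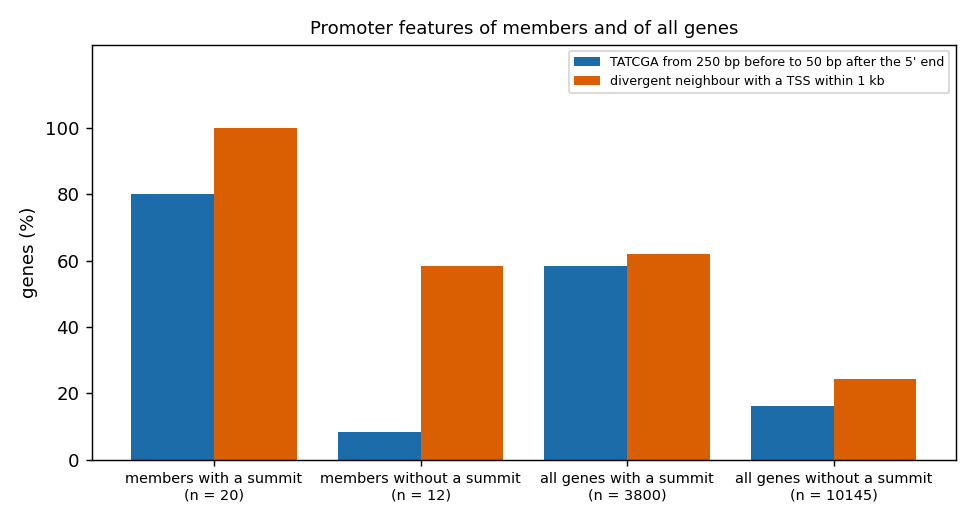
Percentage of genes (vertical axis) with TATCGA near the 5' end (blue) and with a divergent neighbour (orange), for members with a summit, members without, and all protein-coding genes with and without one. TATCGA was present in 80.0% of members with a summit and 8.33% of those without, next to 58.4% and 16.2% of all genes.

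The summits lay close to the starts of the genes. Their distance from the own TSS had a median of -54 bp, where negative values are upstream, and ran from -280 bp at LSm1 to 72 bp at Prp8. The median over all genes with a summit was -69 bp. At 15 of the 20 members the summit was within 100 bp of the own TSS, against 54.5% of all genes with one. At 18 members it lay upstream, between the own TSS and that of the divergent neighbour. Among all genes with a summit it lay upstream at 83.2%. At Prp5 and Prp8 it lay 28 and 72 bp downstream, in the 5' untranslated region. The starts of the gene pairs were 53 bp (SmE and CG34132) to 765 bp (Prp39 and wdn) apart, with a median of 303 bp. In 13 pairs the summit was nearer to the TSS of the member. It was nearer to that of the neighbour at SmB (KdelR), SmD1 (Ptp69D), LSm1 (Xpd), LSm7 (BuGZ), U2af50 (PIG-Q), Sf3b6 (Tnpo) and Prp40 (alpha4GT1). Which gene of a pair a peak belongs to cannot be told apart at these distances.

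**Figure D2:**
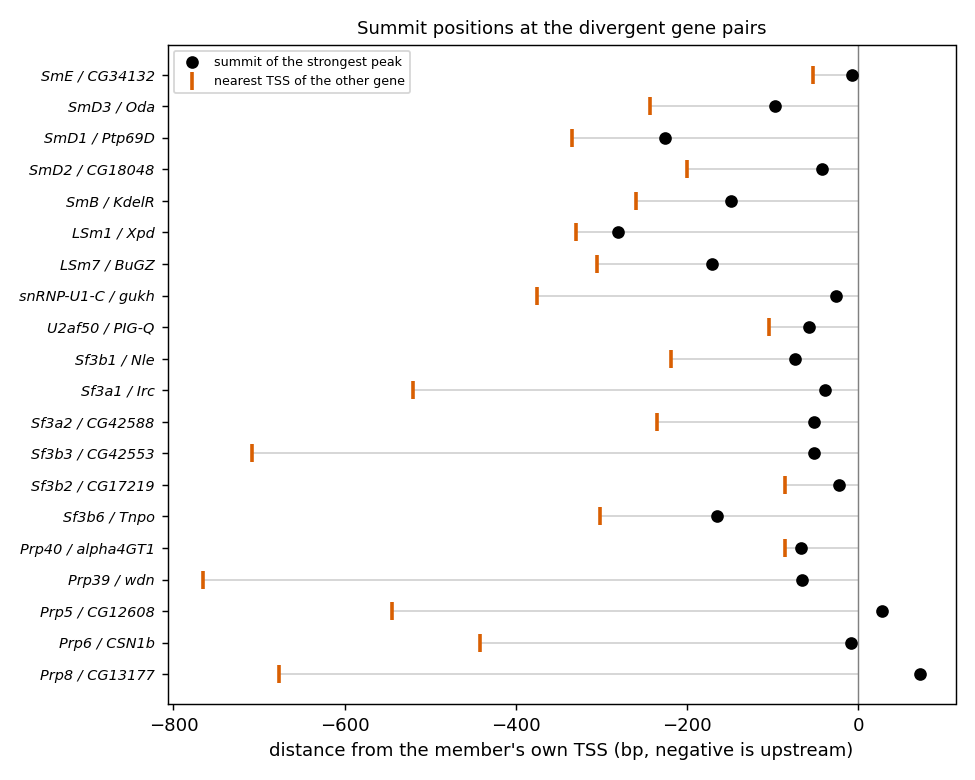
Position of the strongest summit (black) at each of the 20 members with one, in bp from the own TSS with negative values upstream, and the nearest TSS of the divergent neighbour (orange). At 18 members the summit lies between both starts, and at Prp5 and Prp8 it lies just downstream of the own TSS.

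The Sm proteins are named first, since they form the ring common to most snRNPs. The peak height is the signal value that the authors gave each peak, on a scale that is not stated, and it was used only to order peaks within a list. At SmE the pooled peak, chr2L:7885291-7885630, had a signal of 798 and ranked 124 of 3393, with 573 in the list of replicate 1 and 231 in that of replicate 2. SmD3, at chr2R:12168498-12168784 and 97 bp upstream of its TSS, had 653, with 455 and 195 in the replicates. SmD1, at chr3L:12734778-12734932, had 358, with 235 and 132. These 3 peaks were in both replicate lists, in the same order of height in each. SmD2, at chr3R:6345876-6346053, had 270.5, with 221 in replicate 1 and 60.3 in replicate 2. It stood close to SmD1 in replicate 1 and well below it in replicate 2. SmB, at chr2L:10426563-10426986, had 200.0 and was listed in replicate 2 alone, at 121. In replicate 1 its strongest ranked peak had a signal of 70.3 and a score of 29 on the scale of up to 1000, where lists started at 830. SmB was the 1 member with the higher signal in replicate 2, and the other 19 were higher in replicate 1. The median over all listed peaks was also higher in replicate 1 (102.9 against 81.6), so this count says little about the members.

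Peaks at the genes for the SF3a and SF3b subunits, which bind the branch site with the U2 snRNP, covered a wide range of heights. Sf3b1 encodes the largest SF3b subunit, which clamps the branch site. Its peak, at chr2L:568082-568414 and 74 bp upstream of its TSS, had a signal of 647, with 458 and 196 in replicates 1 and 2. Sf3a1, at chr3R:17002256-17002553, had 625, with 449.6 and 168. Sf3a2, at chr3L:12813956-12814168, had 333, with 245 and 96.3. These 3 were in both replicate lists. The peaks of Sf3b3, Sf3b2 and Sf3b6 had 173, 133 and 129 in the pooled list and were listed in replicate 1 alone, at 132, 98.1 and 96.6. In replicate 2 their strongest ranked peaks had signals of 49.1, 36.3 and 33.2 and scores of 248, 545 and 309, all under the threshold. The lower 3 genes of this group were therefore listed in 1 replicate only, though each of their pooled peaks overlapped a peak of the conservative pooled list. Sf3b5, for the smallest of these proteins, had no listed peak, and its strongest ranked peak in the pooled list had a signal of 21.0 and a score of 20.

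The peaks at the LSm, U1 and U2AF genes ran from 123 to 190.5. LSm1 had 190.5, with 123 and 52.8 in replicates 1 and 2. Its product belongs to the cytoplasmic LSm ring that acts in removal of the messenger RNA cap, and not to the ring on U6. LSm7, found in both rings, had 173, with 80.6 and 74.6. snRNP-U1-C, which helps U1 bind the start of the intron, had 145, with 82.3 and 59.8. These peaks were in both replicate lists. U2af50, the large subunit of U2AF that binds the polypyrimidine tract, had 123 and was listed in replicate 1 alone, at 86.8, with 34.5 and a score of 209 in replicate 2. Its partner subunit gene U2af38 had no listed peak. Its strongest pooled ranked peak, at 63.7 and a score of 516, lay 969 bp downstream of the TSS. In the replicates the strongest ranked peaks lay nearer, at 16 bp in replicate 1 (32.0, score 26) and at -39 bp in replicate 2 (18.6, score 290). All were under the threshold.

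Among the Prp genes, Prp40, named after a yeast protein of the U1 snRNP, had the highest peak at 226, with 132 and 108 in replicates 1 and 2. Prp39, named after another U1 protein of yeast, had 178, with 96.4 and 78.4. Prp5, a helicase gene, had 116, with 79.1 and 51.6. These were in both lists. Prp6, for a protein that joins U5 to U4/U6, had 111 and was listed in replicate 1 alone, at 63.3, with 44.2 and a score of 20 in replicate 2. Prp8, for the protein at the catalytic centre, had the lowest member peak at 91.7, with 49.1 in replicate 1 and 45.7 at a score of 430 in replicate 2. It was also the 1 member peak that overlapped no peak of the conservative pooled list.

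In all, 13 of the 20 member peaks overlapped a listed peak of both replicates, next to 59.2% of all promoter peaks. Another 6 overlapped one of replicate 1 only and 1 of replicate 2 only. Across the 13, the order of the signals in the replicates was alike (Spearman's rho 0.89, n = 13 genes), and over all 20, with ranked values for those not listed, rho was 0.65. These are descriptions across genes measured in the same pair of libraries. Depth is unknown, and its part in the lower signals of replicate 2 was not tested.

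**Figure D3:**
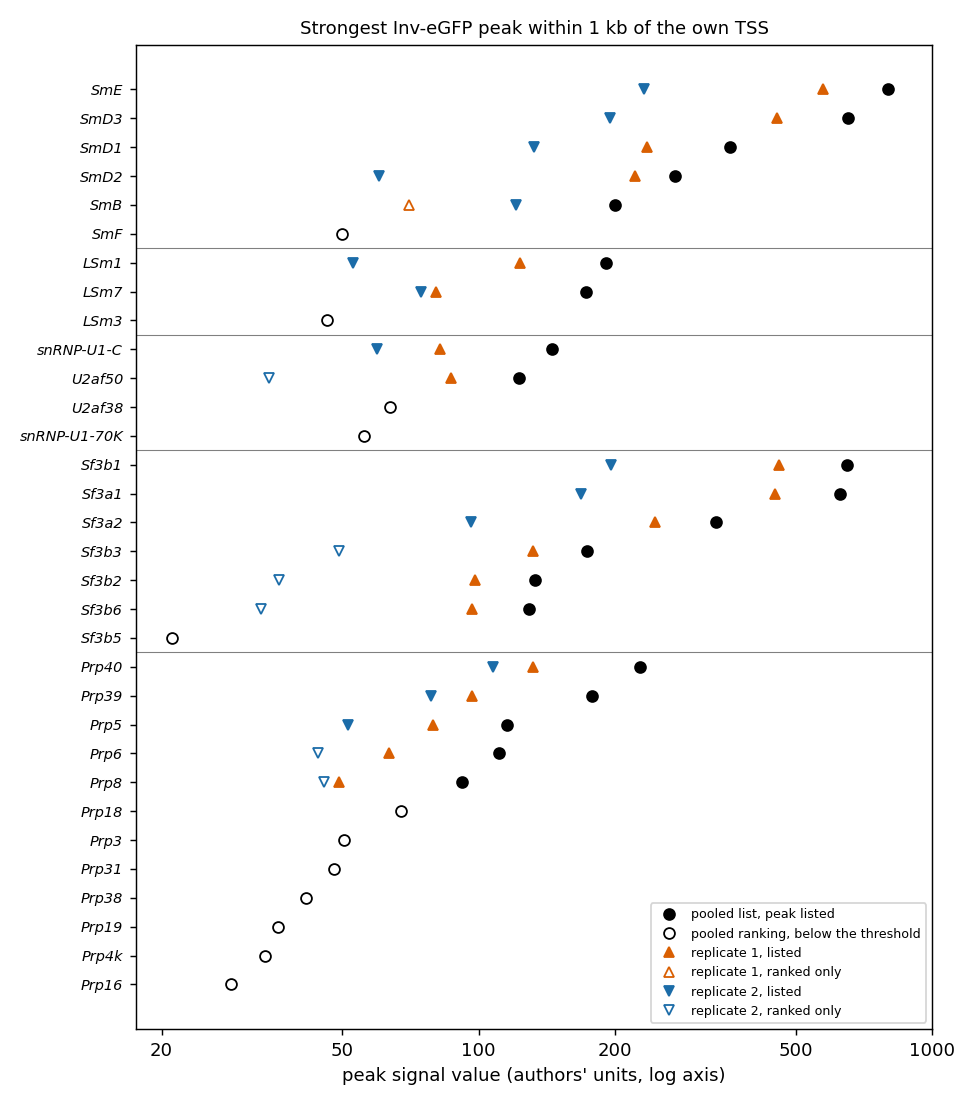
Signal value (log axis, authors' units) of the strongest peak within 1 kb of the own TSS for all 32 members, grouped by role and ordered within each group by the pooled value. Filled symbols are listed peaks, open symbols are ranked peaks under the threshold, triangles are the replicates (for genes with a listed pooled peak), and the pooled values run from 798 at SmE to 91.7 at Prp8 for listed peaks and from 67.5 to 21.0 for the others.

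Height did not set the member peaks apart. Their median signal was 184, that of all promoter peaks was 183, and 10 of the 20 lay above the latter. Counted by gene, with a shared peak counted for each of its genes, the median over all genes with a summit was 195. Just 4 (SmE, SmD3, Sf3b1 and Sf3a1) were in the upper 10% of the main list and 6 in the upper 20%, the others being SmD1 and Sf3a2. The upper ranks were thus held by genes for Sm and SF3 proteins, while the Prp genes ran from 91.7 to 226.

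**Figure D4:**
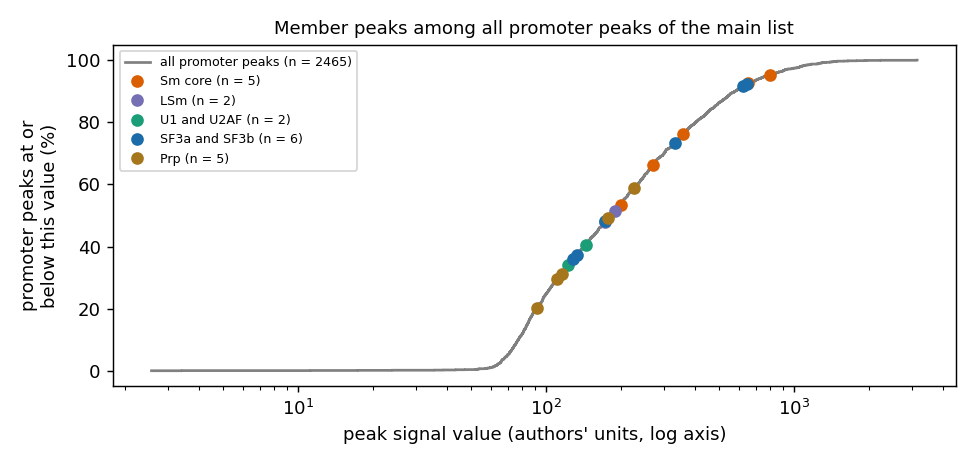
Cumulative percentage of the 2465 promoter peaks (vertical axis) by signal value (log axis, authors' units), with the 20 member peaks placed on the curve and coloured by role. The members are spread along the curve from 91.7 to 798, with a median of 184 next to 183 for all promoter peaks.

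Members without a listed peak at their own TSS had only ranked peaks under the threshold within 1 kb of it. The strongest of each had a signal between 21.0 and 67.5 and a score between 20 and 516, with medians of 47.2 and 203.5. Such peaks are common, since the pooled ranking held 136905 peaks on the arms, and 9128 of the 10145 genes without a summit had one, with a median signal of 36.1 and a median score of 78. Prp18, for a protein of the second step of splicing, had the highest at 67.5, with 46.5 in replicate 1 and 23.9 in replicate 2. U2af38, described above, came next at 63.7. snRNP-U1-70K, for a protein of the U1 snRNP, had 56.0. Its ranked peak in replicate 1 reached a score of 659, the nearest to the threshold in either replicate. The next in the pooled ranking were Prp3 of the U4/U6 snRNP (50.4), SmF (49.9), Prp31 of the same snRNP (48.1), LSm3 (46.3) and Prp38 (41.6). The rest were Prp19, a ubiquitin ligase that activates the spliceosome (36.2), the kinase gene Prp4k (33.8), the helicase gene Prp16 (28.5) and Sf3b5 (21.0). Distances of these pooled ranked peaks from the own TSS varied. They were -975 bp at Prp19, -908 bp at Prp31, -874 bp at Prp3 and -856 bp at Sf3b5, but 473 bp at Prp18 and 62 bp at snRNP-U1-70K.

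The window around the TSS excluded 2 further members that had a listed summit in the gene or within 2 kb. At Prp16 the summit lay at -1051 bp from its TSS, just outside the window, with a signal of 64.0, and was 93 bp from a TSS of l(1)G0469. For snRNP-U1-70K it lay 4074 bp downstream of its TSS, with 1424, and was 19 bp from the TSS of Sumo. Among the strongest summits inside the window the farthest was that of LSm1, at -280 bp. In addition, 4 members had 2 summits within 1 kb of their TSS. The weaker had signals of 182 at SmE, 107 at Prp6, 26.1 at Sf3b6, and a slightly lower value at SmD2.

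Some members were neighbours in the genome and differed in outcome. Prp8, SmD3 and SmF lay within 30.1 kb on 2R, with pooled signals of 91.7 and 653 at the first pair and no listed peak at SmF. On 2L, the 3' ends of Prp40 and Sf3b2 overlapped by 188 bp, and their summits, at opposite ends of the pair, were 6031 bp apart with signals of 226 and 133. No summit was shared between members. By arm, 6 of 8 members on 2L, 3 of 6 on 2R, 5 of 8 on 3L, 4 of 7 on 3R and 2 of 3 on X had a summit.

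Other splicing genes, from a list drawn up by role outside the naming rule, had a summit at their own TSS in 41 of 73 cases (56.2%), next to the background of 27.2%. Their median signal was 204, next to 195 over all genes with a summit. Proteins of the exon junction complex and of messenger RNA export had one in 7 of 9 cases, with Acn (594) and mago (409) as the strongest, followed by Pnn, Hel25E, tsu, CG7483 and Ref1. The list for U1, U2 and U5 proteins outside the rule had 7 of 10, led by CG7564 (1163) and snf (348). The product of snf is shared by U1 and U2. The others were CG10418, CG42724, U2A, noi and hfp. Of these, noi encodes the SF3a subunit that the naming rule missed, with a signal of 145. Roles were given from general knowledge of splicing factors, and the placing of CG10418 in this list was not checked. The U4/U6 and tri-snRNP list had 4 of 5, with U4-U6-60K (1163), CG17266 (344), Usp39 and hoip. The peak of 1163 counts for both CG7564 and U4-U6-60K.

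For the Prp19 complex and the catalytic step 8 of 15 genes had one, led by CG11964 (1345) and Slu7 (413), a second-step factor. The others were Bx42, crn, Cdc5, c12.1, fand and sip1. SR and hnRNP proteins, which steer the choice of splice sites, had 11 of 22, with the SR protein gene SF2 (702) as the strongest. Others with a summit included mub, HnRNP-K, tra2, B52, Hrb87F, nito, Hrb98DE and SC35, and B52 and Hrb87F were counted for the same peak. Those without a summit were x16, Rsf1, Srp54, Hrb27C, sqd, glo, ps and fl(2)d, and also Sxl, elav and fne, known for sex-specific or neuronal splicing. For assembly of snRNPs by the SMN complex 4 of 12 genes had one, the smallest share among these lists and near the background. They were Smn (334), Glos (154), coil and vls.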

How the data were processed

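Chromatin immunoprecipitation with sequencing was done on 2 replicates, with chromatin sonicated to 200 to 800 bp per the labels. The authors deposited peak lists on dm6, ranked and thresholded on the irreproducible discovery rate (IDR). Names of the aligner and peak caller were not given in the sources used here. The deposited signal is the authors' peak height relative to a control, per the deposited descriptions, with no stated scale. The deposited score is the authors' rescaled IDR, and its lowest value in the main list, 830, corresponds to an IDR of 0.0100. The main list was the larger pooled thresholded list (3393 of 3406 peaks on the arms). All its peaks occur, with the same score, in the pooled ranking used for peaks under the threshold. Replicate lists held 2858 and 2129 peaks on the arms. A second pooled ranking was not used, since its 8 columns of values per replicate carry no names. Read counts and control libraries were not analysed here, so depth is unknown.

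TSS came from Ensembl release 115 and sequence from the Release 6 RefSeq genome. Peaks were called shared at 1 bp of overlap. The value of a peak in a replicate is the strongest overlapping peak in its thresholded list or, failing that, in its ranking. Every member was named, with the other splicing genes that had a summit, apart from some that are not reported here. Of 76 entries in the list of other splicing genes, 3 were members and were left out. The members, lists and words were chosen with earlier results of these data known. No p-values were computed, because the samples form 1 group and the list was not chosen blind. Assignment of summits to genes was tested on simulated data. Alternatives were single replicates, the conservative list, peaks above the median signal, TSS windows of 500 and 250 bp, other rules of assignment, and another word and window. Analyses used Python 3.11.15, numpy 2.4.6, pandas 2.3.3, scipy 1.17.1 and matplotlib 3.10.9.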

Additional observations from a re-analysis of the deposited data

How the results depend on the processing

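The member count of 20 was 19 with conservative peaks, 15 with the upper 50% by signal, 14 and 19 with replicates 2 and 1 alone, and 19 to 22 with other windows or assignment. It fell to 13 when the own TSS had to be the nearest, where the other splicing genes fell to 25. The share of all genes moved from 27.2% to 23.1% with conservative peaks, 18.0% with the upper 50%, 18.5% to 25.4% in single replicates, 24.7% and 21.8% with windows of 500 and 250 bp, 19.1% with the nearest TSS, 26.2% with 1 TSS per gene and 37.7% with summits in the gene or within 2 kb. In each of these settings the member share was the higher. The median member signal was 226 in the upper 50%, and 102 to 123 in single replicates, whose scales differ. The median distance was -73.5 to -48 bp in single replicates. TATCGATA in place of TATCGA left 5 of the 11 members. With 100 bp in place of 50 bp around the summit, TATCGA was found at 16 of the 20. Peaks listed in both replicates numbered 13 with conservative peaks, 12 with the upper 50% and 13 when summits had to lie within 100 bp.

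The alternatives that follow, unlike those above, were chosen after the data were seen. From 100 and from 500 bp before the 5' end, TATCGA lay in 14 and 19 of the members with a summit and in 1 and 2 of those without. A divergent neighbour within 500 bp was found for 15 of 20 and 6 of 12, so this contrast narrowed. The causes were not tested. No paired analysis was possible because the samples form 1 group. Without depth, members under the threshold cannot be called unoccupied.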

Other observations

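Other words of DNA were counted within 50 bp of the member summits. TATAAA lay at 3 of 20 (Prp6, Sf3b3 and U2af50) and at 12.2% of all promoter peaks, and the initiator word TCAGT at 5 of 20 and at 16.1%. GGTCACAC, the core of another element of broadly active promoters, lay at 1 of 20 (SmE) and at 4.58% of all promoter peaks. From 250 bp before to 50 bp after the 5' end, it was found in 5 of the 20 members with a summit and in 4 of the 12 without, so among members, unlike TATCGA, its share was no higher with a summit. Over all genes it was found in 7.70% of promoters, and in a larger share of those with a summit. TAATTA was likewise found in 5 of 20 and 4 of 12, next to 20.4% of all promoters. The E-box word CAGCTG and the word GAGAGA were at none of the 20 member summits, compared with 8.24% and 2.88% of promoter peaks.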
